A study of Rattus norvegicus with 10 samples.

Results

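Immediate early genes of neuronal activity were followed in the hypothalamus of young rats, through the 10 genes Fos, Fosb, Junb, Egr1, Egr2, Egr4, Arc, Npas4, Nr4a1 and Btg2. All probe sets of the array that the annotation assigns to one of these genes alone were taken. They numbered 11 and stood for 8 of the 10 genes, out of 14217 genes named in this way on the array. Npas4 and Btg2 were named by no such probe set, so no expression value is given for them. The C group had 5 male Wistar rats on solid feed (chow) for 8 days, and the P group 5 male Wistar rats on powdered feed for the same time. All 10 rats had eaten powdered feed during a short acclimatization, were 3 weeks old at the start and 4 weeks old at sampling, and were dissected under isoflurane. The hour of dissection is not given in the sources used here. The question was whether the mechanical stimulus of chewing goes with a difference in hypothalamic gene expression. Each rat gave 1 Affymetrix rat genome array, a chip on which several short probes per transcript are read together as a probe set.

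Immediate early genes are transcribed within minutes of a stimulus, without new protein synthesis, when calcium and growth factor signals reach transcription factors already bound to their promoters. Their products are mostly transcription factors themselves. Fos, Fosb and Junb encode parts of the AP-1 dimer, Egr1, Egr2 and Egr4 zinc finger factors that bind GC-rich sites, Nr4a1 an orphan nuclear receptor and Npas4 a neuron-specific helix-loop-helix factor. Arc encodes a synaptic protein that promotes removal of AMPA receptors, and Btg2 an antiproliferative cofactor. In the hypothalamus Fos is widely used to mark neurons that fired recently, and Egr1 and Arc are abundant in active cortex and hippocampus.

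The promoters of 8 of the 10 genes were found in the RefSeq table of the rat build GRCr8. The stretches printed below end just before the annotated start of transcription. Those of Egr1 and Egr4 are shown because these genes were high in the same rat, and that of Egr2 because it shares an element with Egr1 although its probe sets did not vary. Capitals mark CArG boxes, the core of the serum response element, and the short form of the cAMP response element (TGACG, or CGTCA on the other strand), to which SRF and CREB bind. The Egr1 stretch is chr18:26736828-26737077 on the plus strand, the Egr4 stretch chr4:119607818-119608067 and the Egr2 stretch chr20:21054442-21054691, both on the minus strand.
Egr1: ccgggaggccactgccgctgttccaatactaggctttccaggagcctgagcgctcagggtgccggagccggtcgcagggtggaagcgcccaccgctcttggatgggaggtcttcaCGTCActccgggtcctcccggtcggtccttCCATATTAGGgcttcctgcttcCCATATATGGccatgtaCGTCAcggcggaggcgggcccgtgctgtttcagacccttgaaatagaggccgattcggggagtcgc
Egr4: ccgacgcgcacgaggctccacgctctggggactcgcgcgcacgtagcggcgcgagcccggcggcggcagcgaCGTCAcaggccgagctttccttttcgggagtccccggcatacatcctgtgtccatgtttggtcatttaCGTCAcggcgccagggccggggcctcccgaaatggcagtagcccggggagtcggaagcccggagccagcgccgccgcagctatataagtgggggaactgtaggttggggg
Egr2: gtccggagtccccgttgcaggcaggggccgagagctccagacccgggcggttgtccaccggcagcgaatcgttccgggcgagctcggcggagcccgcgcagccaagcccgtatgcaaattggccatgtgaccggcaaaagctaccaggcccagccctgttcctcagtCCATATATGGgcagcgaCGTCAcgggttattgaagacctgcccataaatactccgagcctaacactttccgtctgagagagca
Egr1 held 2 CArG boxes and 2 short forms, Egr2 held 1 of each, and Egr4 held 2 short forms and no CArG box in this window. The Egr2 box has the same 10 letters as the second box of Egr1 and lies at the same distance, -83 to -74, from the start. Over both strands of the 250 bases before the start, the short form was found in 6 of the 8 promoters (Egr1, Egr2, Egr4, Junb, Nr4a1 and Btg2), against 18.2% of all 33469 promoters. A CArG box was found in 2 of the 8, against 1.5% of all. The complete cAMP response element TGACGTCA, which contains 2 overlapping short forms, was found in that of Btg2 alone, against 1.59% of all. The EGR site GCGNGGGCG was found in those of Nr4a1 and Btg2 (4.29% of all), the TATA box TATAAA in those of Junb and Fosb (12.9%), and the AP-1 site TGANTCA in none (6.34%). For Egr2, Fosb, Nr4a1 and Npas4 the window lies within the annotated span of the gene, so their matches depend on which start is taken. These matches are letters in a window and were not tested for binding.

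Each probe set has 1 log2 signal per rat, summarized by the authors over its probes, and 92.6% of the 31042 probe sets had a standard deviation (SD) below 0.001 over the 10 rats. Of the 11 probe sets of immediate early genes, 3 varied with an SD above 0.1, namely 1 each of Egr1 (0.27), Egr4 (0.39) and Fos (0.22). That is 27.3%, beside 4.48% of all probe sets. The other 8 had an SD between 0.000105 and 0.000487. Arc, Fosb, Junb, Nr4a1 and Egr2 (by both of its probe sets) were read only by such flat sets, and so were the second probe sets of Fos and of Egr4. No change of these genes can be read from flat values, and absence of change cannot be read from them either. The signal of different probe sets depends on the probes, so levels are compared between rats and never between genes.

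Egr1 read 9.91, 8.97, 9.30, 9.09 and 9.09 in Chow 1 to Chow 5, against 9.33, 9.17, 9.10, 9.24 and 9.04 in Powder 1 to Powder 5. Chow 1 stood 0.59 above the next rat, and the other C rats lay within or just below the range of the P group. Egr4, a factor of the same family, read 7.68, 6.38, 6.67, 6.47 and 6.76 in Chow 1 to Chow 5, against 6.90, 6.52, 6.54, 6.48 and 6.36 in Powder 1 to Powder 5. Again Chow 1 was highest, by 0.78 over Powder 1, and the other C rats lay inside the range of the P group. Fos read 8.52, 8.15, 8.53, 7.90 and 8.32 in Chow 1 to Chow 5, against 8.55, 8.56, 8.18, 8.43 and 8.37 in Powder 1 to Powder 5. Here Chow 1 was the fourth of the 10 rats, Chow 4 was lowest, and the diets overlapped.

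**Figure D1:**
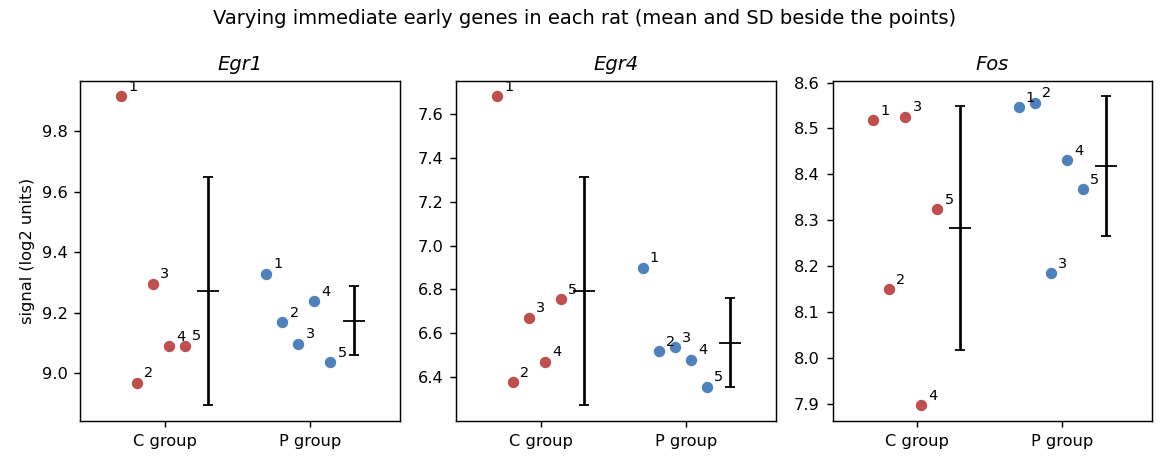
Signal (log2 units) of Egr1, Egr4 and Fos in each rat, C group left and P group right, with the rat number beside each point and the group mean and SD (n = 5) at its side. Chow 1 stands alone at 9.91 for Egr1 and 7.68 for Egr4, while Fos is lowest in Chow 4 at 7.90.

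The diet difference of each gene was smaller than its SD over the 10 rats. Differences are C minus P on the log2 scale, from a linear model fitted with limma to all probe sets. Egr4 averaged 6.79 ± 0.52 in C rats, against 6.56 ± 0.20 in P rats (SD, n = 5 each), a difference of 0.23 (SE 0.24, 95% interval -0.32 to 0.78). Without Chow 1 the difference was 0.0104. Egr1 averaged 9.27 ± 0.38 in C rats, against 9.17 ± 0.11 in P rats (SD, n = 5 each), a difference of 0.10 (SE 0.17, 95% interval -0.29 to 0.49). Its sign turned without Chow 1, to -0.063. Fos averaged 8.28 ± 0.27 in C rats, against 8.42 ± 0.15 in P rats (SD, n = 5 each), a difference of -0.13 (SE 0.13, 95% interval -0.44 to 0.17). Without Chow 4 it was -0.038. The intervals leave room for differences of either sign.

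In exact two-sided permutation tests over all assignments of 5 against 5 rats, p was 0.786 for Egr1, 0.460 for Egr4 and 0.365 for Fos. Limma gave an adjusted p of 0.9995 for all 3 over all probe sets. It called 0 of the 11 probe sets of immediate early genes, and the smallest unadjusted p among them was 0.108. Over the array limma called 0 of 31042 probe sets (0%), the lowest adjusted p being 0.986, and 3.54% had an unadjusted p below 0.05. The study used rank products, which rank the difference of every pair of a C and a P rat over all probe sets and call at an estimated false discovery rate (FDR) below 0.05. By this test Egr4 was called higher in the C group (FDR 0.0224) and Fos lower (FDR 0.0116), while Egr1 was called in neither direction (FDR 0.325 as higher and 0.241 as lower). That is 1 of 11 probe sets higher and 1 of 11 lower, beside 0.934% and 0.783% of all probe sets. Rank products do not divide by the spread between rats, and 34.4% of the 1391 probe sets with an SD above 0.1 were called (1.71% of all). The call of Egr4 was lost without Chow 1 (FDR 0.337), without Chow 3 (0.0843), without Chow 5 (0.0842) and without Powder 5 (0.0949). The call of Fos was lost without Chow 4 (0.101), without Powder 1 (0.0849) and without Powder 2 (0.0869).

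**Figure D2:**
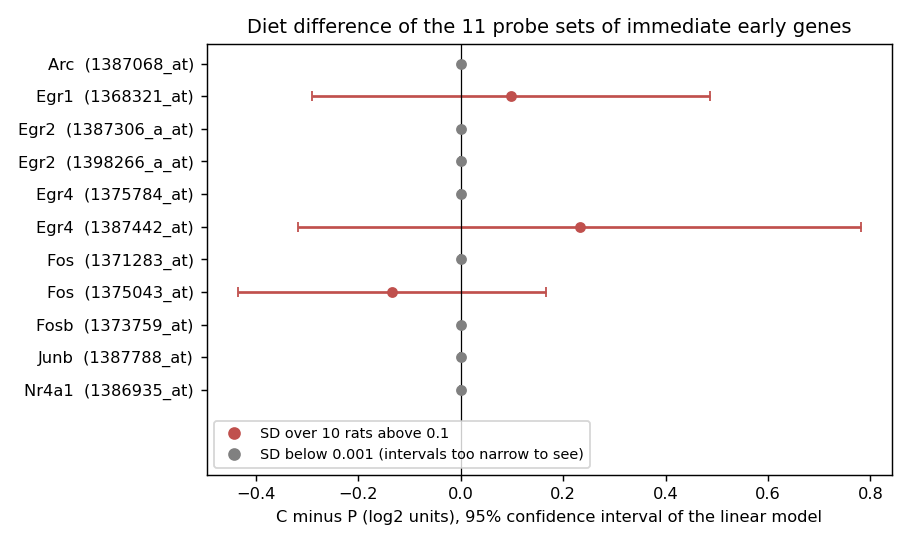
Difference of the C group minus the P group (log2 units) for the 11 probe sets of immediate early genes, as points with the 95% confidence interval of the linear model (5 rats per group). All 3 wide intervals, of Egr1, Egr4 and Fos, include 0, and the 8 flat probe sets sit at 0 by their lack of spread.

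Egr1 and Egr4 were high in the same rats. Their Pearson r over the 10 rats was 0.94 (permutation p = 0.00208, 0.0260 after Benjamini-Hochberg adjustment over 25 relations) and their Spearman rho 0.82 (permutation p = 0.00561, adjusted 0.0701). Without Chow 1 and Powder 1, the rats farthest from the median of Egr4, r was 0.51, so the relation rests on these rats. Without Chow 1 alone r was 0.70 (adjusted p = 0.292), and after removal of the diet means it was 0.95. The adjusted p was also above 0.05 without Chow 2 (0.0714), Chow 3 (0.0576), Powder 1 (0.0726) or Powder 5 (0.0581), with r between 0.94 and 0.95 in these cases. Over all 10 rats Fos followed Egr1 less closely, with r = 0.52 (permutation p = 0.118, adjusted 0.245) and rho = 0.73 (permutation p = 0.0208, adjusted 0.174). Without Chow 1 the 2 pairs were alike. Fos and Egr1 then had r = 0.67 (adjusted permutation p = 0.292), beside 0.70 for Egr1 and Egr4, and rho was 0.75 for both pairs. The r of Fos and Egr1 was 0.50 without Chow 2 and Chow 4. Fos and Egr4 had r = 0.43 (permutation p = 0.190, adjusted 0.340) and rho = 0.49 (permutation p = 0.155, adjusted 0.727), with r = 0.36 without the same rats. Powder 1 ranked second of the 10 rats for all 3 genes, and Chow 2 was last for Egr1 and ninth for Egr4 and Fos. Chow 4 was eighth for both Egr genes and last for Fos.

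Chow 1 was also the highest rat in several markers of cortical and hippocampal neurons, tissue that lies outside the hypothalamus. Slc17a7, the vesicular glutamate transporter of these neurons, read 8.05 in Chow 1, with 6.62 to 6.91 in the remaining rats. Nrgn, the postsynaptic calmodulin-binding protein neurogranin, read 9.97 in Chow 1, with 9.03 to 9.26 in the remaining rats, and Itpka, an inositol trisphosphate kinase of dendritic spines, 7.88 in Chow 1, with 6.80 to 7.03 in the remaining rats. Of 14 such markers 12 were measured and 5 varied (with Camk2a and Neurod6), each with its most variable probe set highest in Chow 1. Apart from Neurod6 (0.244), the SD of these probe sets over the other 9 rats was between 0.072 for Nrgn and 0.098 for Camk2a, so they passed the limit of 0.1 only through Chow 1, and their shared peak there follows from that limit. A second varying probe set of Camk2a was highest in Chow 5 (9.008) and read 8.77 in Chow 1. Of the 12 measured markers 6 were flat. The remaining one, Nptx1 (SD 0.095), was highest in Powder 2 (10.28) and read 10.25 in Chow 1. The mean deviation of the 5 varying markers from the average of all rats was 0.75 in Chow 1, -0.14 to 0.02 in Chow 2 to Chow 5 and -0.16 to -0.04 in P rats. The mean level over all 12 lay between 7.71 and 8.10 in the C group and between 7.72 and 7.77 in the P group. No marker has a true zero on an array, and the lowest value of the whole table is 5.23. Egr4 had r = 0.89 with this marker mean (permutation p = 0.0487, adjusted 0.171) and rho = 0.37 (permutation p = 0.296, adjusted 0.739). Egr1 had r = 0.88 (permutation p = 0.0684, adjusted 0.171) and rho = 0.31 (permutation p = 0.385, adjusted 0.805). These p-values do not allow for the choice of markers by an SD that Chow 1 produced, so nothing is concluded from them. Without Chow 1 and Chow 5, r was -0.49 for Egr4 and -0.09 for Egr1. Over the 9 rats other than Chow 1, r with the marker mean was -0.0084 for Egr4 and -0.18 for Egr1, so the relation with this mean rests on Chow 1. The mean holds Neurod6, which was low in Powder 1 (6.22), and single markers differed from it. Over the same 9 rats Nrgn had r = 0.81 with Egr4, and Itpka had r = 0.76 with Egr1. These 2 were picked from the highest correlations of 1014 probe sets over all rats, so they do not stand for the list. Slc17a7 was highest among the 9 rats in Chow 2 (6.91), the lowest rat for Egr1. The part of cortical or hippocampal tissue in the Egr1 and Egr4 values of Chow 1 was not tested. In a bulk sample, more cells of a kind and more RNA per cell cannot be told apart.

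**Figure D3:**
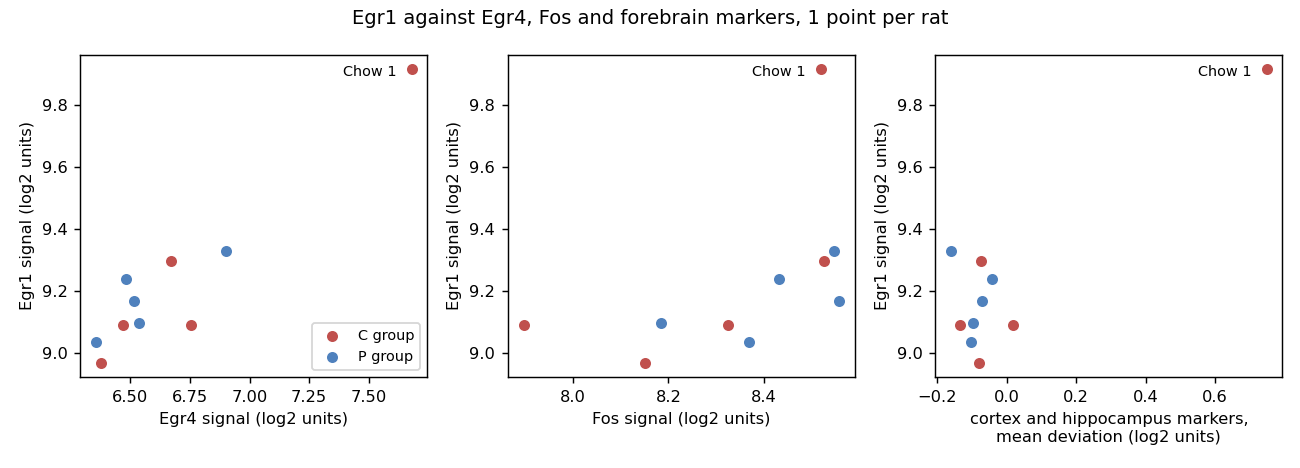
Egr1 signal (log2 units) against Egr4 signal, Fos signal and the mean deviation of the 5 varying cortex and hippocampus markers (all log2 units), with 1 point per rat and the diets in color. Chow 1 lies at the upper right of all 3 panels, and the other 9 rats spread over 8.97 to 9.33 for Egr1 and -0.16 to 0.02 for the marker mean.

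Hypothalamic neuron genes were read in every rat, and several were lowest in Chow 1. Pmch, which encodes the precursor of melanin-concentrating hormone, was at 12.44 in Chow 1 and at 12.79 to 13.07 in Chow 2 to Chow 5, against 13.04 to 13.15 in P rats. Hcrt, the precursor of the orexins, read 9.94 in Chow 1 and 10.57 to 10.95 in Chow 2 to Chow 5, against 10.68 to 10.96 in P rats. The mean deviation of the 9 varying genes of this list was -0.199 in Chow 1, the lowest of the 10 rats, and -0.063 to 0.193 in the others. Of the 9, 1 gene went the other way and was highest in Chow 1. The part of these genes in the Egr1 and Egr4 values of Chow 1 was not tested. Over 17 measured hypothalamic neuron genes, 6 of them flat, the mean level was 8.86 to 8.98 in C rats, against 8.96 to 9.08 in P rats. For the counts that follow, rank products called 0.934% of all probe sets higher and 0.783% lower, and 34.4% of those with an SD above 0.1 in either direction. Of these 17 genes, 9 of which varied, rank products called 7 lower in the C group (Oxt, Cartpt, Pmch, Trh, Crh, Hcrt and Avp) and 0 higher. Of the cortex and hippocampus list it called Slc17a7 and Nrgn higher and Nptx1 lower, and of 16 leptomeningeal genes, all of which varied, it called 16 higher. Of the other lists it called 1 higher and 1 lower for thalamus (10 genes measured), 0 and 1 for striatum (9), 2 and 0 for astrocytes (10), 2 and 0 for anterior pituitary (8), 1 and 0 for choroid plexus (8), and none for microglia (10) or endothelium (10). Limma called 0 probe sets of each list. The mean deviation of the 3 varying thalamus markers (Tnnt1, Gbx2 and Rgs16) was highest in Powder 1, the second rat for Egr1, Egr4 and Fos. It was 0.427 there, against -0.32 to 0.16 in the other rats. Of the 3, Tnnt1 and Gbx2 peaked in Powder 1 and Rgs16 in Chow 1 (8.48, against 8.25 in Powder 1). Of the 10 measured thalamus genes 5 were flat. Among those neither flat nor above an SD of 0.1, Tcf7l2 was highest in Powder 1 (10.03), while Calb2 was lowest there (10.88). Ttr, the choroid plexus gene that varied, read 9.29, 9.50 and 8.74 in Chow 1, Chow 3 and Powder 1, the 3 highest rats for Egr1, and 6.83 to 8.36 in the others. The part of thalamic or choroid plexus tissue in the values of the immediate early genes was not tested. Of the 8 measured genes of the anterior pituitary list 6 were flat. The 2 that varied, Cga and Tshb, had their highest mean deviations in Chow 4 and Chow 5 (2.11 and 0.95). Chow 4 was low for all 3 varying immediate early genes, and Chow 5 was the third highest rat for Egr4. Arrays correlated at 0.997 to 0.999 with each other, and Chow 1 had the largest mean distance to the other rats (0.00228 on the scale of 1 minus Pearson r), followed by Chow 4 (0.00195). Fibroblast genes of the leptomeninges, the membranes around the brain, had a mean deviation of 0.88 in Chow 1 and 0.70 in Chow 4, but -0.46 to -0.21 in Chow 2, Chow 3 and Chow 5 and -0.75 to 0.45 in P rats. Egr1 and Egr4 did not share the second of these peaks, as Chow 4 was eighth of 10 rats for both. Their r with the leptomeningeal mean was 0.34 and 0.35 (permutation p = 0.360 and 0.350, both adjusted 0.491), and their rho -0.19 and -0.10 (permutation p = 0.609 and 0.786, both adjusted 0.837). Without Chow 1 and Chow 4 both r values were below 0, at -0.51 and -0.45.

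The genes whose pattern over the 10 rats was most like that of Egr1, among 1014 other single-gene probe sets with an SD above 0.1, were Itpka (r = 0.96), Septin5, a septin of nerve terminals (0.95), and Mef2c, an activity-regulated transcription factor of forebrain neurons (0.95). For Egr4 they were Rasgrp1, a guanine nucleotide exchange factor for Ras (0.96), Nrgn (0.96) and Septin5 (0.96). All 5 of these genes were highest in Chow 1. Without Chow 1 their r with Egr1 or Egr4 was 0.76 for Itpka, 0.70 for Septin5 and 0.71 for Mef2c, and 0.79 for Rasgrp1, 0.81 for Nrgn and 0.75 for Septin5. For Fos they were different genes, Gosr1, a SNARE protein of the Golgi (0.92), Fxyd6, a regulator of the sodium pump (0.89), and Trhr, the receptor for thyrotropin-releasing hormone (0.81). Without Chow 1 these were 0.92, 0.94 and 0.83. These correlations were picked as the highest of many and carry no test. Itpka, Nrgn, Mef2c, Septin5 and Rasgrp1 had an SD above 0.1 only through Chow 1. In the remaining rats Septin5 read 9.11 to 9.21 and Rasgrp1 6.61 to 6.76. All 5 thus entered this search through the rat that was highest for Egr1 and Egr4.

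A wider list of 46 genes induced by activity or growth factors held 45 measured genes. Of these 34 were flat, with an SD below 0.001 in every probe set, and 8 varied. Rank products called 0 of them higher in the C group and 1 lower, Vgf, a secretory granule precursor, and limma called 0 of 76 probe sets. A share of 1 in 76 lower is near the 0.783% of the whole array, so nothing is read from it about the list. Vgf was 10.29 ± 0.07 in C rats, against 10.37 ± 0.04 in P rats (SD, n = 5 each), a difference of -0.078 (SE 0.033, rank product FDR 0.0179). The 8 varying genes had a median difference of 0.055, beside 0.031 over all probe sets with an SD above 0.1, and all 8 differences were above 0, beside 65.1% of those probe sets. Of the 8, 5 were highest in Chow 1 and 3 in Powder 5 (Nr4a2, Inhba and Ccn2, by the most variable probe set). Plk2, a polo-like kinase of active synapses, read 9.29 in Chow 1, with 8.87 to 9.004 in the remaining rats. Ptgs2, the inducible cyclooxygenase, read 7.02 in Chow 1, with 6.61 to 6.78 in the remaining rats. Klf10, a zinc finger repressor, read 8.54 in Chow 1, with 7.94 to 8.22 in the remaining rats, and Ier5, a serum-induced gene, 8.69 in Chow 1, with 8.24 to 8.49 in the remaining rats. Over the other 9 rats the SD of these 4 genes was 0.047 to 0.076, so they passed the limit of 0.1 only through Chow 1, and their peak in the rat that was highest for Egr1 and Egr4 follows from that limit. Egr1 and Egr4 themselves had an SD of 0.12 and 0.18 over the other 9 rats. As Chow 1 is a C rat, the same limit favors a positive C minus P difference for Plk2, Ptgs2, Klf10 and Ier5. The shared sign of the 8 differences is therefore not read as a diet effect.

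Ier3, a stress-induced survival gene, had another order of rats. It read 7.99 in Chow 1, 7.81 in Chow 4 and 7.37 to 7.49 in Chow 2, Chow 3 and Chow 5, against 7.48, 7.67, 7.75, 7.44 and 7.59 in Powder 1 to Powder 5. It correlated with the mean of the leptomeningeal genes, with r = 0.92 (permutation p = 0.00026, adjusted 0.0065) and rho = 0.90 (permutation p = 0.00066, adjusted 0.0165). Without Chow 1 and Chow 4 r was 0.81 (adjusted p = 0.375), and without Chow 1 alone it was 0.88 (adjusted p = 0.0585). It was the only one of the 22 relations between a varying activity gene and a marker list with an adjusted p below 0.05, and these relations were chosen after the values were seen. The part of leptomeningeal tissue in the Ier3 values was not tested.

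Nr4a2, an orphan receptor related to Nr4a1, and Inhba, the activin beta A subunit, were low in 1 rat. Nr4a2 read 7.46 to 7.65 in the C group, against 7.12 in Powder 1 and 7.54 to 7.69 in Powder 2 to Powder 5, and its second probe set 6.83 to 7.03 in the C group, against 6.66 in Powder 1 and 6.95 to 7.05 in Powder 2 to Powder 5. Inhba read 7.01 to 7.23 in the C group, against 6.61 in Powder 1 and 6.95 to 7.28 in Powder 2 to Powder 5. Powder 1 was the second highest rat for Egr1, Egr4 and Fos, so the varying genes of the wider list did not share one order of rats. Ccn2, a matrix-associated growth factor target, read 7.81 to 7.99 in C rats, against 7.60 to 8.08 in P rats, with its highest value in Powder 5 and its lowest in Powder 4.

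**Figure D4:**
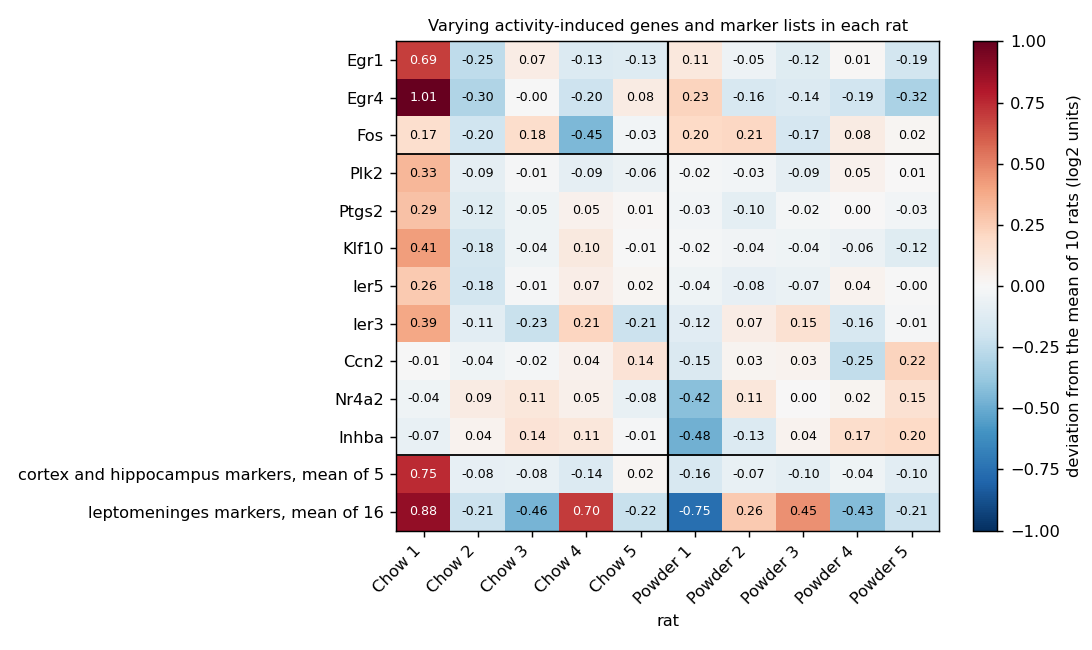
Deviation from the mean of the 10 rats (log2 units, color and printed value) of the 3 varying immediate early genes, the 8 varying genes of the wider list and the mean of 2 marker lists, with rats in columns (C group left of the line, P group right). Chow 1 is highest for Egr1, Egr4, Plk2, Ptgs2, Klf10, Ier5 and Ier3, and Powder 1 is lowest for Nr4a2 and Inhba.

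Among 17 measured genes that act upstream of these promoters (receptors, kinases and transcription factors), 14 were flat and 2 varied. Rank products called 1 gene of this list higher in the C group and 0 lower, beside 0.934% and 0.783% of all probe sets. Of probe sets with an SD above 0.1, 34.4% were called. The called gene was Mef2c (FDR 0.0218), with a difference of 0.23 (SE 0.21). It read 9.77 in Chow 1, with 8.56 to 8.78 in the remaining rats. Over those rats the SD of this probe set was 0.073, so it passed the limit of 0.1 only through Chow 1. The second varying probe set of Mef2c, at 8.04 in Chow 1, with 7.27 to 7.45 in the remaining rats, differed by 0.10 (SE 0.14) and was not called. Crebbp, a coactivator that CREB recruits, read 6.29 to 6.80 in C rats, against 6.39 to 6.98 in P rats, with a difference of -0.048 (SE 0.13), and was not called. Limma called 0 of the 45 probe sets of this list. Creb1, Srf, Elk1 and the NMDA receptor subunit genes of the list did not vary by more than an SD of 0.1.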

How the data were processed

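Each array held hypothalamic RNA of 1 rat, 5 of them from C rats and 5 from P rats. In R 2.7.2 the authors summarized and normalized the scans by FARMS, a factor analysis over the probes of a set, and the deposited values are log2 signals of 31099 probe sets, used as they are after 57 hybridization controls were left out. Scanner files were not used here. Arrays have no sequencing depth, and their number limits the precision. The replicates are separate animals. Of 31042 probe sets, 20826 name a single gene, 436 several and 9780 none, by the platform annotation, and 20758 of the first kind matched the RefSeq table by gene identifier. All 10 columns were mapped.

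Rank products took all 25 pairings of C with P rats and 100 permutations, with an FDR below 0.05. The diet effect was fitted with limma 3.58.1 (R 4.3.3), and p was adjusted after Benjamini-Hochberg over the whole array. The 252 ways to assign 5 against 5 rats gave the exact tests, and correlations 100000 resamples. Python 3.11.15 with numpy 2.4.6, pandas 2.3.3, scipy 1.17.1 and matplotlib 3.10.9 did the rest. Both tests were also run on simulated arrays with independent noise and added changes. Those arrays lack a profile shared by many probe sets in 1 rat, so they do not cover the calls that rest on Chow 1. Where a gene had several probe sets, the one of largest SD stood for it in correlations and list means.

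The 10 genes, the lists and the tests were chosen with earlier results of these data known. Named genes were the 10 genes, the varying (SD above 0.1) or called genes of 2 lists (activity-induced and upstream), varying cell type markers highest in the same rat, and the 3 genes most like each varying gene in pattern. Other lists of markers covered cortex and hippocampus, hypothalamic neurons, leptomeninges, thalamus, striatum, microglia, endothelium, anterior pituitary, choroid plexus and astrocytes. Alternatives were quantile normalization, median centring, filters on mean level or SD, rank sums, values divided by the within-group SD, the replicate block, a trended and robust prior, an FDR of 0.01, other SD limits and leaving out rats.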

Additional observations from a re-analysis of the deposited data

Results flagged for a closer look

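Single rats far from the rest of their diet group (n = 5) were looked for in 46 groups, those of 21 varying probe sets and 2 marker list means, by the gap to the nearest rat as a share of the range of the group. A gap above 0.71 of the range was found 11 times. Chance gives such a gap in about 1 of 20 groups, but that rate cannot be set against this count: the probe sets were taken for an SD above 0.1, which 1 distant rat can produce, and many share the profile of Chow 1. Chow 1 stood apart in the kinase gene Plk2 at 9.29 (next C rat 8.95), in both probe sets of Mef2c at 9.77 and 8.04 (next 8.78 and 7.43), and in the forebrain genes Itpka at 7.88 (7.03), Slc17a7 at 8.05 (6.91) and Nrgn at 9.97 (9.26). The mean deviation of the cortex and hippocampus markers did so too, at 0.75 in Chow 1 and 0.02 in the next C rat. Powder 1 stood apart in both probe sets of Nr4a2 at 7.12 and 6.66 (next P rats 7.54 and 6.95), in Neurod6, a transcription factor of cortical neurons, at 6.22 (6.91), and in Camk2a, a synaptic kinase gene, at 9.92 (9.80). Egr1 and Egr4, although highest in Chow 1, stayed under this limit.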

How the results depend on the processing

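No alternative that was run made limma call a probe set of the immediate early genes. Rank products called 290 probe sets of the array higher in the C group and 243 lower. These counts were 123 and 97 with mean levels above the median, 1 and 2 with an SD above 0.1, 1 and 7 by rank sums, 27 and 70 with scaling by the within-group SD and 92 and 96 at an FDR of 0.01. Without Chow 1 and Chow 4 there were 47 higher calls. Leaving out 1 rat gave 113 (Chow 1) to 352 higher calls, with 131 without Chow 4 and 161 without Powder 1, and 112 (Powder 5) to 317 lower calls, with 131, 126 and 154 without Powder 1, Powder 2 and Powder 4. Limma called 0 to 1 probe sets with 1 rat left out, 1 without Powder 4. Of the immediate early genes, Egr4 and Fos were both lost (0 higher and 0 lower calls) with an SD above 0.1, by rank sums, with scaling by the within-group SD and at an FDR of 0.01. Egr4 was not tested with mean levels above the median (0 higher calls) and was lost without Chow 1 and Chow 4 (0). With 1 rat left out there were 0 to 1 higher and 0 to 1 lower calls. Egr4 kept its call in 6 of 10 such cases and Fos in 7 of 10.

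The Egr1 difference turned to -0.0626 without Chow 1 and to -0.0552 without Chow 1 and Chow 4, with a range of -0.0626 to 0.174 over single rats left out. That of Egr4 ranged from 0.0104 to 0.336 and that of Fos from -0.195 to -0.0376. The Egr1 and Egr4 correlation lost its adjusted p without the 2 farthest rats (r = 0.51, adjusted p = 0.576) and ranged from 0.70 to 0.97 with 1 rat left out, where the adjusted p was above 0.05 without Chow 1, Chow 2, Chow 3, Powder 1 or Powder 5. The count of 3 varying probe sets was the same under all 13 alternatives. The replicate numbers did not pair the rats: same-numbered rats correlated at -0.353 to 0.26 in their deviations, over 0.1 for 2 of 5 numbers, and 1 of 10 rats correlated best with its own number. With the replicate block limma called 0 probe sets.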

Other observations

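Of the 8 flat probe sets of the immediate early genes, 6 were highest in Chow 1 (those of Arc, Fosb, Junb and Nr4a1, 1 of the 2 of Egr2 and the flat set of Fos), the rat that was highest for Egr1 and Egr4. Over the array, 9.42% of the 28736 flat probe sets were highest in Chow 1, and 27.4% of the 1391 varying ones. The largest range of a flat set over the rats was 0.00138 log2 units, so these are no measures of a change in level. The other 2 were highest in Chow 5 (Egr4) and Chow 2 (Egr2), and the lowest rat differed between the sets. No test was made of this count.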
